A study of Homo sapiens with 9 samples.

Results

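The 10 genes described here are cytokines: the neutrophil-attracting chemokines *CXCL8*, *CXCL1*, *CXCL2* and *CXCL3*, the chemokine *CCL20*, the gp130 cytokines *IL6*, *IL11* and *LIF*, and the interleukin-1 genes *IL1A* and *IL1B*. They were chosen by name, from 27860 genes with values, because *CXCL8* and *IL11* were higher when *FZD6* was knocked down. The values of *CXCL8* and *IL11* against scramble are therefore a description and carry no test. DU145 cells are a prostate cancer line derived from a human tumor. It carried lentiviral pLKO.1 vectors that constitutively expressed a scrambled shRNA (scramble), *FZD6* shRNA #1 (shRNA1) or *FZD6* shRNA #2 (shRNA2), with 3 RNA-seq libraries per group. This is a single cell line, and the labels name no treatment. The labels call the libraries triplicates and do not say whether they came from separate cultures, so p-values measure only the spread between these libraries. Values are FPKM, fragment numbers scaled to transcript length and library size, summed over the RefSeq transcripts of a gene.

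CXCL8, also called interleukin-8, binds the receptors CXCR1 and CXCR2 on neutrophils. The CXCL1, CXCL2 and CXCL3 proteins bind CXCR2. IL-6, IL-11 and LIF signal through receptor complexes that contain gp130, encoded by *IL6ST*, and activate STAT3. Several of these genes are classical targets of NF-κB, AP-1 and C/EBP factors, and their mRNAs often carry AU-rich elements in the 3′ untranslated region that shorten mRNA life. DU145 cells are known to secrete CXCL8 and IL-6.

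The libraries carried the markers of an epithelial line. All 5 epithelial markers (*EPCAM*, *KRT8*, *KRT18*, *KRT19* and *CDH1*) were above 1 FPKM on average, whereas the luminal prostate markers *KLK3*, *KLK2* and *TMPRSS2* stayed at or under 0.0476 FPKM in every library. The fibroblast and endothelial markers summed to at most 0.495 and 0.0990 FPKM. *FZD6* itself was 20.5 ± 0.441 FPKM in scramble (SD, n = 3), 9.47 to 10.2 FPKM with shRNA1 and 7.69 to 8.79 FPKM with shRNA2. The depth estimated from the confidence bounds was 32.8 to 41.0 M fragments per library, so 1 fragment of *IL1B* was worth about 0.02 FPKM.

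The start regions of *CXCL8* and *IL11* are shown because these genes had the largest differences among the members. Those of *CXCL1*, *CXCL2* and *CXCL3* are shown because they show how alike the start regions of these 3 genes are. Sequences are RefSeq promoters of GRCh38.p14, from 250 bases before the transcription start to 50 bases after it, and 9 of the 10 members have one. Capitals mark the AP-1 letters TGANTCA and the NF-κB-like letters GGNNTTTCC, searched on both strands.
CXCL8, chr4:73740319-73740618, plus strand: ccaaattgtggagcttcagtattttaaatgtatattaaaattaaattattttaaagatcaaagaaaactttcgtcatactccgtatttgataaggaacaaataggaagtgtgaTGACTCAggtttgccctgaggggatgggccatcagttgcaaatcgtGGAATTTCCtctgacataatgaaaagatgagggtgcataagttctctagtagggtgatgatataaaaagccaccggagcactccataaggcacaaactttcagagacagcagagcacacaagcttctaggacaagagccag
IL11, chr19:55370414-55370713, minus strand: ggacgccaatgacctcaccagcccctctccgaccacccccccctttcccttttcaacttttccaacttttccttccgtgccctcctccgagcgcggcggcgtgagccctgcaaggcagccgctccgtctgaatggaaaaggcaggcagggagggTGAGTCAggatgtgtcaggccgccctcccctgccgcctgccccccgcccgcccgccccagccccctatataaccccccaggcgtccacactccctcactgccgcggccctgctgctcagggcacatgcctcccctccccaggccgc
The *CXCL8* window holds the AP-1 letters at −137 to −131 from the start, the NF-κB-like letters at −91 to −83 and TATAAA at −31 to −26. The *IL11* window holds the AP-1 letters at −96 to −90 and no NF-κB-like letters. The windows of *CXCL1*, *CXCL2* and *CXCL3* each hold 2 NF-κB-like matches, shown here in 50-base stretches that begin 15 bases before the first match.
CXCL1, chr4:73869300-73869349, plus strand: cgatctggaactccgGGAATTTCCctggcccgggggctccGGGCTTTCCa
CXCL2, chr4:74099238-74099287, minus strand: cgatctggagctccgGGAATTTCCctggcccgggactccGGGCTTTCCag
CXCL3, chr4:74038733-74038782, minus strand: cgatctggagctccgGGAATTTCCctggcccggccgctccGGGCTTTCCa
Over the first 32 bases of these stretches *CXCL2* and *CXCL3* were identical, and *CXCL1* matched each of them at 31. NF-κB-like letters were found in 6 of the 9 members (*CXCL8*, *IL6*, *CXCL1*, *CXCL2*, *CXCL3* and *CCL20*) and in 6.26% of 35116 promoters. AP-1 letters were found in 3 members (*CXCL8*, *IL11* and *IL1A*) and in 7.71% of promoters. The C/EBP letters TTGCNNAA were in 3 members (*IL6*, *CXCL2* and *IL1B*) and in 10.5% of promoters. TATAAA was in 3 members (*CXCL8*, *IL1A* and *CCL20*) and in 11.5% of promoters, and that of *IL1A* lay far from the start, at −239 to −234. Members were counted as genes and the background as single promoters, and *IL1A* has windows for separate starts. No match overlapped another. These are letters in a window and not binding sites.

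The members also shared AU-rich letters at the other end of the transcript. In the longest annotated 3′ untranslated region of each gene (GENCODE v29), ATTTA was present in all 10 members, from 3 copies in *CCL20* to 10 in *CXCL2*. The median was 2 copies over 18152 genes, so these letters are common, and the share of all genes that carry them was not counted. The stricter nonamer TTATTTATT was present in 7 of the 10, with 6 copies in *IL11*, 5 in *CXCL2*, 3 in *CXCL1*, 2 each in *LIF* and *IL1B* and 1 each in *CXCL8* and *CXCL3*. Over all genes 8.32% carry it. The regions of *CXCL8* (1252 bases) and *IL11* (1618 bases) are close to or above the median length of 1109 bases, while that of *LIF* is longer at 3204 bases.

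DU145 cells expressed 3 of the members well. In scramble *IL11* was highest at 10.9 ± 0.551 FPKM (SD, n = 3), followed by *CXCL8* at 7.35 ± 0.981 and *LIF* at 6.78 ± 0.127, and these 3 genes made up 84.6% of the summed FPKM of the members. The lowest *CXCL8* library (6.44 FPKM) lay under the lowest *LIF* library (6.70 FPKM) and the highest (8.39 FPKM) above the highest (6.92 FPKM), so these neighbours in the order did not separate. *CXCL2* at 1.31 ± 0.158, *CXCL1* at 1.29 ± 0.149 and *IL6* at 1.06 ± 0.196 FPKM overlapped each other as well. *CXCL3* followed at 0.581 ± 0.0661 and *CCL20* at 0.307 ± 0.0876 FPKM. *IL1A* was listed at 0 in all 3 scramble libraries and *IL1B* in 2 of them. The summed FPKM of the 10 members was 29.6 ± 1.27 in scramble, 40.9 ± 1.08 with shRNA1 and 45.1 ± 1.16 with shRNA2 (SD, n = 3 each), and *CXCL8* and *IL11* entered that sum by choice.

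**Figure D1:**
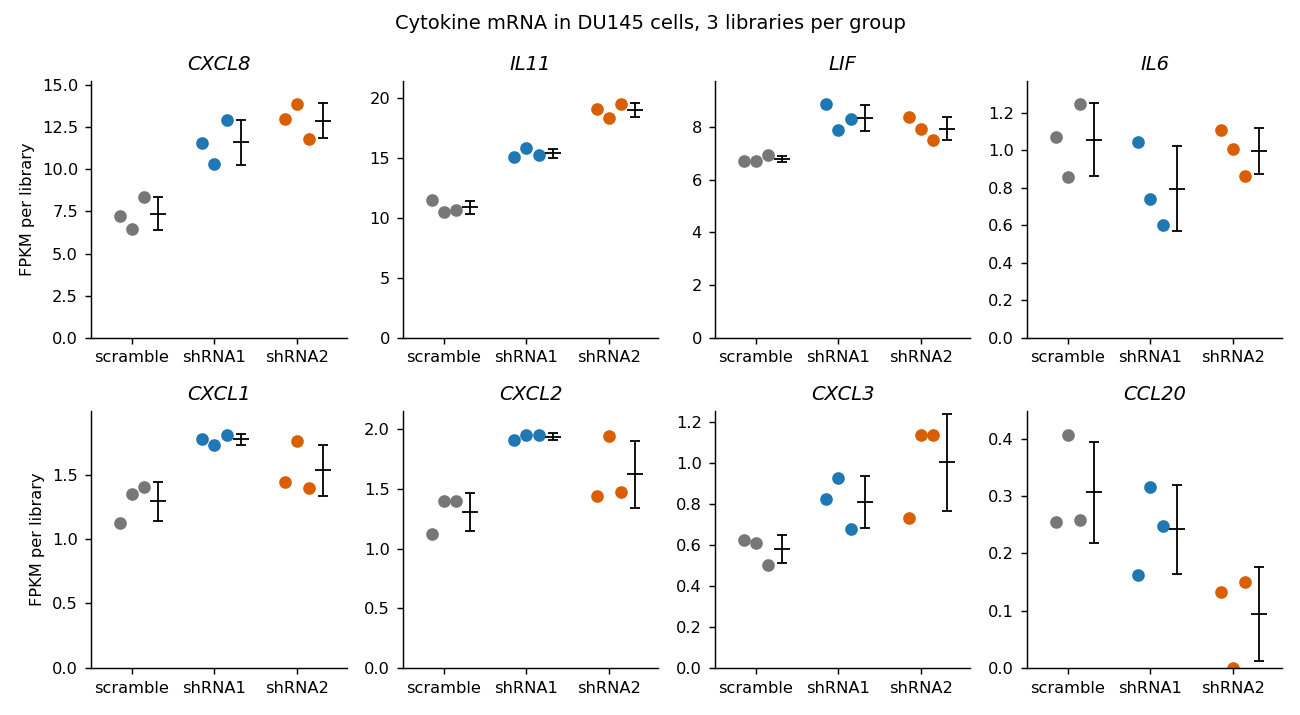
FPKM (y axis, from 0) of 8 members in each library of scramble, shRNA1 and shRNA2 (x axis), with 1 dot per library and the mean ± SD of 3 libraries beside the dots. The knockdown dots of *CXCL8*, *IL11*, *LIF*, *CXCL2* and *CXCL3* lie above every scramble dot, those of *IL6* and *CXCL1* overlap scramble, and *CCL20* is lowest with shRNA2.

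*CXCL8* was 7.23, 6.44 and 8.39 FPKM in the scramble libraries, 11.6, 10.3 and 12.9 FPKM with shRNA1 and 13.0, 13.9 and 11.8 FPKM with shRNA2. All 6 knockdown libraries were above all scramble libraries, while the shRNA1 and shRNA2 libraries overlapped. The group means were 1.58-fold of scramble with shRNA1 and 1.75-fold with shRNA2. On the log2(FPKM + 1) scale, used for all differences below and smaller than a fold change at low levels, *CXCL8* was 0.67 higher over both shRNAs. The gene was chosen for its difference from scramble and not for a difference between the shRNAs, and the latter was not called. The shRNA2 minus shRNA1 difference was 0.14 (95% interval −0.11 to 0.39, limma adjusted p = 0.493).

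The *CXCL8* sum joined a pair of annotated transcripts on chromosome 4 of hg38. The longer runs from 73740569 to 73743716, and the shorter ends at 73742330. The longer transcript was 6.68, 6.41 and 6.15 FPKM in scramble, 8.42, 8.97 and 9.27 FPKM with shRNA1 and 9.21, 13.1 and 11.8 FPKM with shRNA2. It did not overlap scramble in any knockdown library, and its scramble spread (SD 0.264) was smaller than that of the sum (SD 0.981). The shorter transcript varied from 0.0237 to 2.24 FPKM within scramble and from 0.000112 to 3.76 FPKM within shRNA2, so its share was not stable between libraries of a group.

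*IL11* was 11.5, 10.5 and 10.7 FPKM in scramble, 15.1, 15.8 and 15.3 FPKM with shRNA1 and 19.1, 18.4 and 19.5 FPKM with shRNA2. The 3 groups did not overlap, and the order was scramble, shRNA1, shRNA2. The shRNA groups were apart from each other for 26.4% of tested genes. Means were 1.41-fold of scramble with shRNA1 and 1.74-fold with shRNA2, and 0.61 higher on the log2 scale over both. The step from shRNA1 to shRNA2 was itself called, at 1.23-fold or 0.29 on the log2 scale (95% interval 0.19 to 0.38, limma adjusted p = 0.00773), and it was the only 1 of the 5 tested members called in that comparison, in which 6.71% of 12509 genes were called. It was called under all 21 alternative settings, with an adjusted p of 0.00394 to 0.0392. *FZD6* differed in the same comparison, 0.25 lower with shRNA2 than with shRNA1 (limma adjusted p = 0.0273).

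*IL11* also has more than 1 annotated transcript at chromosome 19, 55364382 to 55370463. The main transcript held 10.5 to 11.5 FPKM in scramble, 14.8 to 15.6 FPKM with shRNA1 and 18.1 to 19.1 FPKM with shRNA2. The second transcript was at most 0.000136 FPKM in the scramble libraries. In the knockdown libraries it was 0.203 to 0.256 FPKM with shRNA1 and 0.279 to 0.778 FPKM with shRNA2, a level that rests on few fragments.

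**Figure D2:**
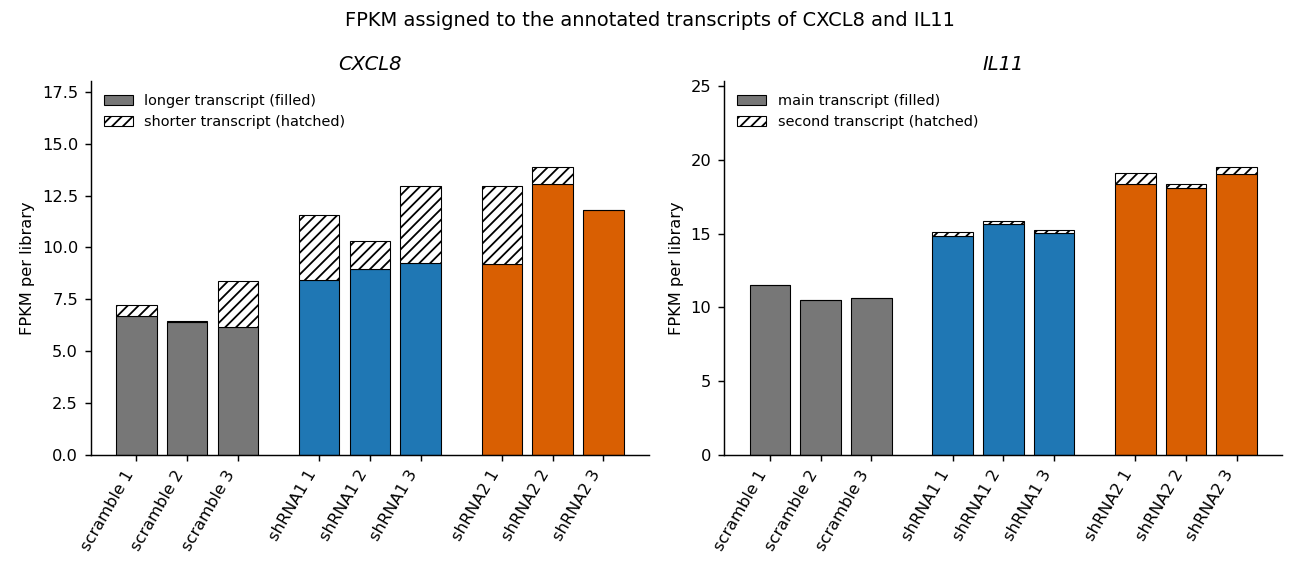
FPKM (y axis, from 0) of *CXCL8* and *IL11* in each of the 9 libraries (x axis), with the longer or main annotated transcript filled and the shorter or second one hatched on top. The hatched part of *CXCL8* varies between libraries of every group, whereas *IL11* is almost all main transcript and steps up from scramble to shRNA1 to shRNA2.

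*LIF* maintains stem cells in culture and signals through LIFR and gp130. It came in with its family and not by its change, although earlier results of these data were known. It was 6.70, 6.70 and 6.92 FPKM in scramble, 8.85, 7.88 and 8.30 FPKM with shRNA1 and 8.36, 7.93 and 7.49 FPKM with shRNA2. Every knockdown library was above every scramble library, and the shRNA groups overlapped. It rose with knockdown by 0.23 on the log2 scale (standard error 0.045, 95% interval 0.13 to 0.33, limma adjusted p = 0.0103). Each shRNA was called on its own (shRNA1 0.26, adjusted p = 0.0120, and shRNA2 0.20, adjusted p = 0.0217, both by limma), in contrasts that share the scramble libraries and called 18.8% and 26.7% of tested genes. Without scramble replicate 2 the call was lost, with a log2 difference of 0.22 and an adjusted p of 0.0512.

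The neutrophil chemokines other than *CXCL8* were low. *CXCL2* was 1.12, 1.40 and 1.40 FPKM in scramble, 1.91, 1.95 and 1.96 FPKM with shRNA1 and 1.44, 1.95 and 1.47 FPKM with shRNA2. All knockdown libraries were above scramble, by a small margin for shRNA2 replicates 1 and 3. *CXCL2* rose with knockdown by 0.27 (standard error 0.082, limma adjusted p = 0.0499), at the edge of the threshold, and 13 of 20 alternatives took it past 0.05, with adjusted p-values of up to 0.234. Against scramble it was called with shRNA1 (0.35, limma adjusted p = 0.0231) and not with shRNA2 (0.18, limma adjusted p = 0.128). The shRNA2 minus shRNA1 difference was −0.17 (95% interval −0.35 to 0.01, limma adjusted p = 0.258). Without shRNA2 replicate 2 that difference was −0.26 and was called (adjusted p = 0.0378).

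*CXCL1* was 1.12, 1.35 and 1.40 FPKM in scramble, 1.78, 1.73 and 1.81 FPKM with shRNA1 and 1.44, 1.76 and 1.40 FPKM with shRNA2. The lowest shRNA2 library fell within scramble. The difference of knockdown from scramble was 0.21 (standard error 0.067, 95% interval 0.06 to 0.36), with a limma adjusted p of 0.0557, and 4 of 20 alternatives put it under 0.05. With shRNA1 alone it was called (0.28, limma adjusted p = 0.0268), and with shRNA2 it was 0.14 (limma adjusted p = 0.145). The shRNA2 minus shRNA1 difference was −0.13 (95% interval −0.29 to 0.02, limma adjusted p = 0.283).

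*CXCL1*, *CXCL2* and *CXCL3* are related genes on chromosome 4. The likeness of their transcripts was not measured, so fragments may have been split between them and their separate values are uncertain. The ratio of *CXCL2* to *CXCL1* stayed between 0.993 and 1.13 over the 9 libraries, while that of *CXCL3* to *CXCL1* ranged from 0.359 to 0.816. *CXCL3* was 0.627, 0.611 and 0.505 FPKM in scramble, 0.826, 0.928 and 0.677 FPKM with shRNA1 and 0.732, 1.14 and 1.14 FPKM with shRNA2. No knockdown library overlapped scramble. *CXCL3* was under the filter of 1 FPKM, and a two-sided exact permutation test of 6 against 3 libraries gave 0.26 higher with p = 0.0357, unadjusted for the 5 members tested this way, where the smallest possible p is 0.0119. Without the filter, limma gave an adjusted p of 0.101, and 10.9% of the genes then tested were called.

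*IL6*, the best known gp130 cytokine, was 1.07, 0.856 and 1.25 FPKM in scramble, 1.04, 0.742 and 0.602 FPKM with shRNA1 and 1.11, 1.01 and 0.866 FPKM with shRNA2. The groups overlapped, and the knockdown difference was −0.12 (two-sided exact permutation test, p = 0.310, unadjusted). Its value rested on 15 to 46 implied fragments per library, against 663 to 1002 for *IL11*. The 95% interval of the difference by limma without a filter, −0.35 to 0.11, leaves room for a change of either sign.

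*CCL20*, a chemokine for CCR6-bearing lymphocytes and dendritic cells, was 0.254, 0.408 and 0.258 FPKM in scramble, 0.162, 0.315 and 0.248 FPKM with shRNA1 and 0.132, 0 and 0.150 FPKM with shRNA2. The shRNA2 libraries lay under all others, and shRNA1 overlapped scramble. The knockdown difference was −0.16 (two-sided exact permutation test, p = 0.0833, unadjusted), from at most 9 implied fragments per library. *IL1A* was 0.0122 FPKM in shRNA1 replicate 2 and 0.0294 FPKM in shRNA2 replicate 2 and listed at 0 elsewhere. *IL1B* was 0.0178 FPKM in scramble replicate 3 and 0.0205 FPKM in shRNA2 replicate 2 and listed at 0 elsewhere. Each of these values stands for about 1 fragment or less, and the exact permutation tests gave unadjusted p = 0.750 and 1.

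The members were listed with earlier results of these data known. Of the 10 members 5 passed the filter of a mean of 1 FPKM. Among the 3 of these that were not chosen for their change, *LIF* and *CXCL2* were called and *CXCL1* was not, where 20.6% of 12509 tested genes were called (13.5% higher and 7.1% lower). Libraries that did not overlap between knockdown and scramble were found for 25.9% of tested genes. The log2 differences of the 3 members not chosen for their change were 0.23 for *LIF*, 0.27 for *CXCL2* and 0.21 for *CXCL1*, against a median of 0.03 over all tested genes. The median over the 5 tested members was 0.27, but it includes *CXCL8* and *IL11* and so partly restates their choice. Short transcripts were higher with knockdown across the data set, with a Spearman correlation of −0.430 between transcript length and log2 difference over 12295 genes. *CXCL1* (1097 bases), *CXCL2* (1218 bases), *CXCL8* (1705 bases) and *IL11* (2281 bases) are all shorter than the median of 2626 bases, and *LIF* (3969 bases) is longer. With that trend removed the difference went from 0.21 to 0.11 for *CXCL1*, from 0.27 to 0.17 for *CXCL2*, from 0.67 to 0.59 for *CXCL8*, from 0.61 to 0.56 for *IL11* and from 0.23 to 0.24 for *LIF*.

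**Figure D3:**
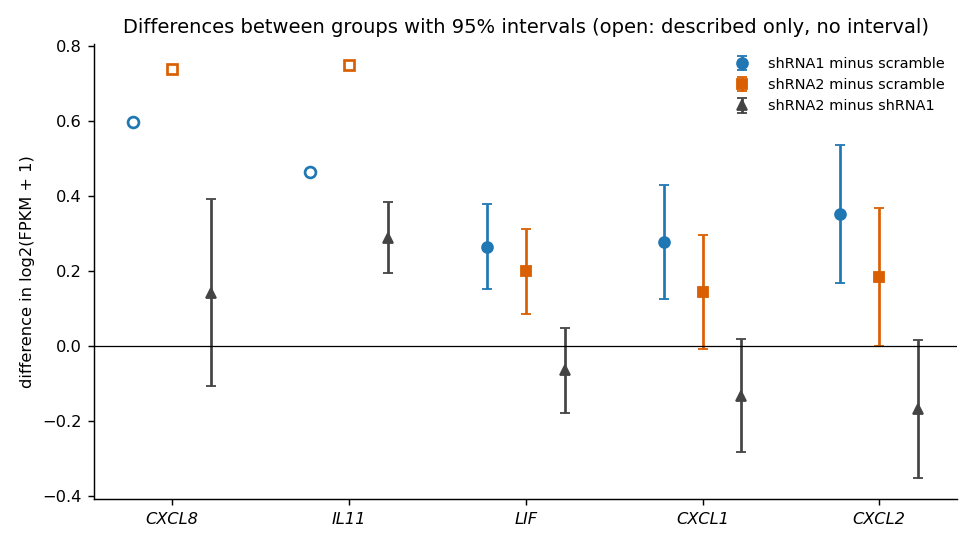
Differences in log2(FPKM + 1) (y axis) for the 5 members above 1 FPKM (x axis), for shRNA1 minus scramble, shRNA2 minus scramble and shRNA2 minus shRNA1, with 95% intervals from limma. Open symbols have no interval because these genes were chosen for that difference, and of the shRNA2 minus shRNA1 intervals the 1 of *IL11* (0.19 to 0.38) lies above 0.

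Each chosen gene was set beside the genes whose log2 values followed it most closely over the 9 libraries, as a description without a test. For *CXCL8* these were *DUS4L* (r = 0.990), *PCMT1* (0.971), *PSPC1* (0.971), *EMC4* (0.969) and *CDCA7L* (0.967), and 242 of 12508 genes reached 0.9. For *IL11* they were *CD68* (r = 0.993), *MRPL45* (0.988), *CT83* (0.988), *MRPS33* (0.982) and *RPS4X* (0.981), and 397 genes reached 0.9. All points are the same 9 libraries in 3 groups. *CXCL8* and *IL11* correlated at 0.895 with each other, and a high value was built in because both were chosen for their rise with knockdown. *CXCL8* correlated at 0.851 with *LIF*, and *IL11* at 0.468 with *CXCL1*.

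*CD68*, a lysosomal protein used as a macrophage marker, rose with *IL11* from 17.4 FPKM in scramble to 22 FPKM with shRNA1 and 25.4 FPKM with shRNA2. Of the 9 leukocyte markers it was the only one above 1 FPKM on average. Their sum was 18.1 to 19.2 FPKM in scramble, 22.2 to 23.7 FPKM with shRNA1 and 26.0 to 28.1 FPKM with shRNA2, almost all of it *CD68*. The defining markers *PTPRC* (CD45), *CD3E* and *MS4A1* were listed at 0 in all 9 libraries. The monocyte marker *CD14* was present at a low level in every library and did not follow *CD68*. It was 1.11 ± 0.0954 FPKM in scramble, 0.735 ± 0.124 FPKM with shRNA1 and 0.966 ± 0.0985 FPKM with shRNA2 (SD, n = 3 each), under the filter over all libraries and not tested. The remaining markers were at most 0.134 FPKM, apart from *LYZ*. In shRNA2 replicate 2 *LYZ* was 1.14 FPKM against at most 0.158 FPKM elsewhere, and the values of the members without this library are 0.63 for *CXCL8*, 0.59 for *IL11*, 0.24 for *LIF* and 0.25 for *CXCL2*, which was then not called (limma adjusted p = 0.0696). In bulk RNA fewer expressing cells and less RNA per cell cannot be told apart.

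The members' receptors were mostly the gp130 type. *IL6ST* was 15.6 ± 0.755 FPKM in scramble (SD, n = 3), *LIFR* 5.76 ± 0.241, *IL6R* 5.75 ± 0.0756 and *IL11RA* 4.16 ± 0.382 FPKM. None of these 4 was called in knockdown, with log2 differences of 0.01, −0.12, 0.04 and −0.06 (limma adjusted p = 0.904, 0.245, 0.433 and 0.555). *LIFR* was called without shRNA2 replicate 2 (−0.16, adjusted p = 0.0151). The CXCL chemokine receptors *CXCR1* and *CXCR2*, the CCL20 receptor *CCR6* and the decoy receptor *ACKR1* were at most 0.0123 FPKM in any library.

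Among the interleukin-1 receptor chains, *IL1RAP*, the shared accessory chain, was 5.24 to 5.63 FPKM in scramble, 6.28 to 6.48 FPKM with shRNA1 and 5.60 to 6.76 FPKM with shRNA2, and was called higher (0.17, standard error 0.049, limma adjusted p = 0.0431), the only 1 of 6 tested receptors, where 20.6% of all tested genes were called. The call was lost under 9 of 21 alternatives. *IL1R1*, the signalling receptor, was 1.85 to 1.91 FPKM in scramble, 1.54 to 1.74 FPKM with shRNA1 and 1.14 to 1.53 FPKM with shRNA2. Its difference of −0.21 was not called (limma adjusted p = 0.0849), although the shRNA2 contrast alone was (adjusted p = 0.0110). The decoy *IL1R2* was at most 0.0557 FPKM, and the antagonist *IL1RN* was 0.280 ± 0.0316 FPKM in scramble.

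Among 87 listed cytokines and chemokines, members included, 13 were at or above 1 FPKM in scramble, 15 lay between 0.1 and 1 FPKM, 59 were lower and 26 were listed at 0 in all 9 libraries. The macrophage growth factor *CSF1* was the highest at 79.7 ± 0.929 FPKM, followed by *IL18* at 17.2 ± 0.414, the gp130 cytokine *CLCF1* at 15.5 ± 0.253 and *IL32* at 15.4 ± 0.472 FPKM (SD, n = 3). *IL11* was next. *CSF1* fell to 73.3 FPKM with shRNA1 and 71.7 FPKM with shRNA2 (−0.13, limma adjusted p = 0.0222). *IL18*, released after caspase-1 cleavage, rose by 0.24 (limma adjusted p = 0.0316) and *IL32* rose by 0.25 (limma adjusted p = 0.0271).

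These 3 were the called genes among 5 tested of 48 other interleukins and cytokines, where 20.6% of all tested genes were called. *CLCF1* was not called (−0.05, limma adjusted p = 0.574). With the length trend removed, *IL18* (0.14, adjusted p = 0.216) and *IL32* (0.15, adjusted p = 0.152) were no longer called, and with scramble replicate 1, 2 or 3 left out none of the 3 was. Of 29 other chemokines only *CXCL16* and *CCL28* could be tested, and neither was called (limma adjusted p = 0.767 and 0.618). At an unadjusted p under 0.05 neither passed.

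**Figure D4:**
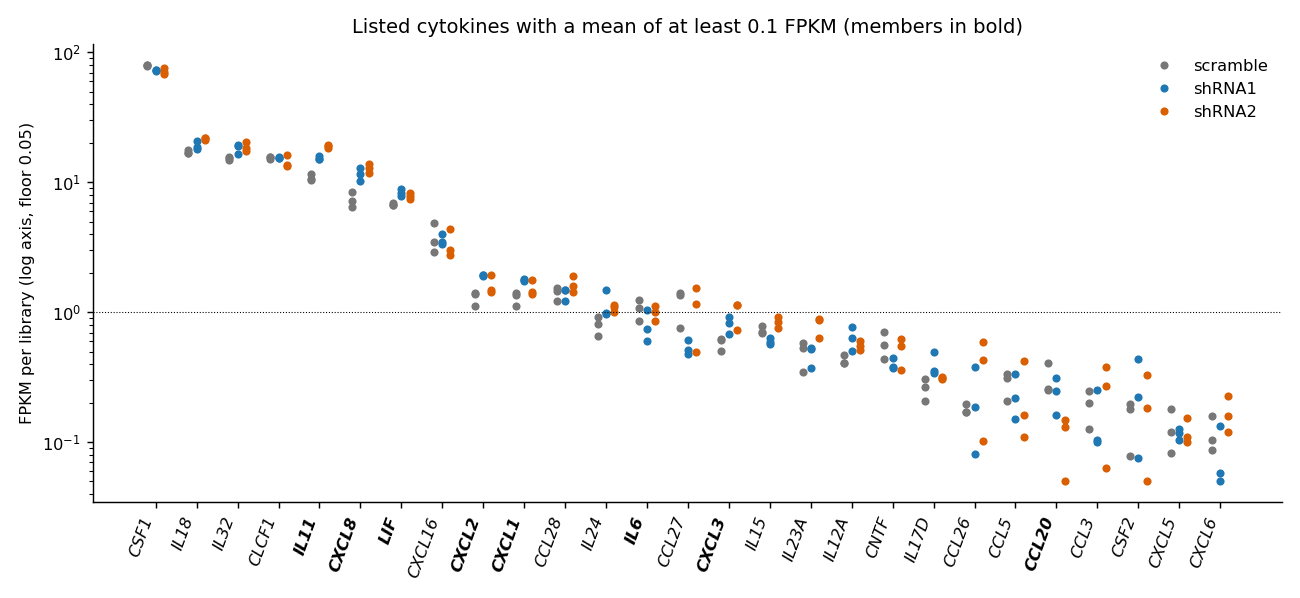
FPKM per library (y axis, log scale, values under 0.05 drawn at 0.05) of the 27 listed cytokines with a mean of at least 0.1 FPKM (x axis, in falling order), with scramble, shRNA1 and shRNA2 as separate dots. *CSF1* stands above all others, and the members, in bold, spread from *IL11* and *CXCL8* down to *CCL20*.

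The AP-1, C/EBP and NF-κB families and other genes of the pathways were listed and tested gene by gene. Of 12 tested AP-1 and C/EBP genes, 3 were called with knockdown, all higher. This is near the 20.6% of all tested genes that were called (13.5% higher), so the count does not set the list apart. *FOSL1*, an AP-1 subunit, was 101.7, 96.1 and 96.8 FPKM in scramble, 138.6, 139.7 and 141.7 FPKM with shRNA1 and 131.3, 119.6 and 132.8 FPKM with shRNA2 (0.44, standard error 0.054, limma adjusted p = 0.00253). *ATF3*, a stress-induced AP-1 partner, went from 9.53 ± 0.0854 FPKM in scramble to 12.5 and 12.0 FPKM with shRNA1 and shRNA2 (0.33, standard error 0.033, limma adjusted p = 0.00120). *JUN* went from 27.6 ± 0.731 to 31.3 and 31.2 FPKM (0.17, standard error 0.025, limma adjusted p = 0.00371). The knockdown libraries of all 3 lay above scramble, and all 3 were called under every one of the 21 alternatives. The list's median was 0.01, against 0.03 over all genes, and 6 of the 12 tested genes were lower.

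Of 25 tested NF-κB subunits, kinases and inhibitors, 2 were called over both shRNAs and both were higher. That is a smaller share than the 20.6% of all tested genes called (13.5% higher). With shRNA1 alone 6 were called, all higher, where 18.8% of all tested genes were called. With shRNA2 alone 6 were called higher and 1 lower, where 26.7% of all tested genes were called. *TNFAIP3*, the A20 inhibitor of NF-κB signalling and itself an NF-κB target, was 2.39, 2.42 and 2.54 FPKM in scramble, 3.44, 3.72 and 3.60 FPKM with shRNA1 and 3.21, 3.59 and 3.36 FPKM with shRNA2 (0.38, standard error 0.039, limma adjusted p = 0.00146). It was called under all 20 alternatives that kept it in the table. *NFKBIB*, an inhibitor that holds NF-κB in the cytoplasm, rose by 0.20 (standard error 0.044, limma adjusted p = 0.0143), and 4 of 21 alternatives took it past the threshold. The list's median was 0.08, against 0.03 over all tested genes, with 20 of 25 genes above 0. The share of all tested genes above 0 was not counted.

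Of 14 tested AU-rich element decay and stability factors, 1 was called over both shRNAs, also a smaller share than over all tested genes. With shRNA1 alone 1 was called higher and 1 lower, where 18.8% of all tested genes were called. With shRNA2 alone 4 were called, all lower, where 26.7% of all tested genes were called. The gene called over both shRNAs was the kinase *MAPKAPK2*, which restrains the decay of cytokine mRNAs. It fell from 77.2 ± 3.94 FPKM in scramble to 70.1 FPKM with shRNA1 and 65.9 FPKM with shRNA2 (−0.18, standard error 0.046, limma adjusted p = 0.0269). Leaving out any scramble library, or shRNA2 replicate 3, lost that call. The list's median was −0.08, against 0.03 over all tested genes, with 10 of 14 genes lower. The share of all tested genes that were lower was not counted. By limma, 0 of 13 tested gp130 transducers and feedback genes were called (median −0.08), with 4 at an unadjusted p under 0.05. Of 8 tested interleukin-1 processing genes 0 were called (median −0.02), with 1 at an unadjusted p under 0.05. The share of all tested genes at an unadjusted p under 0.05 was not counted. It was at least the 20.6% that were called, so these unadjusted counts do not set the lists apart.

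**Figure D5:**
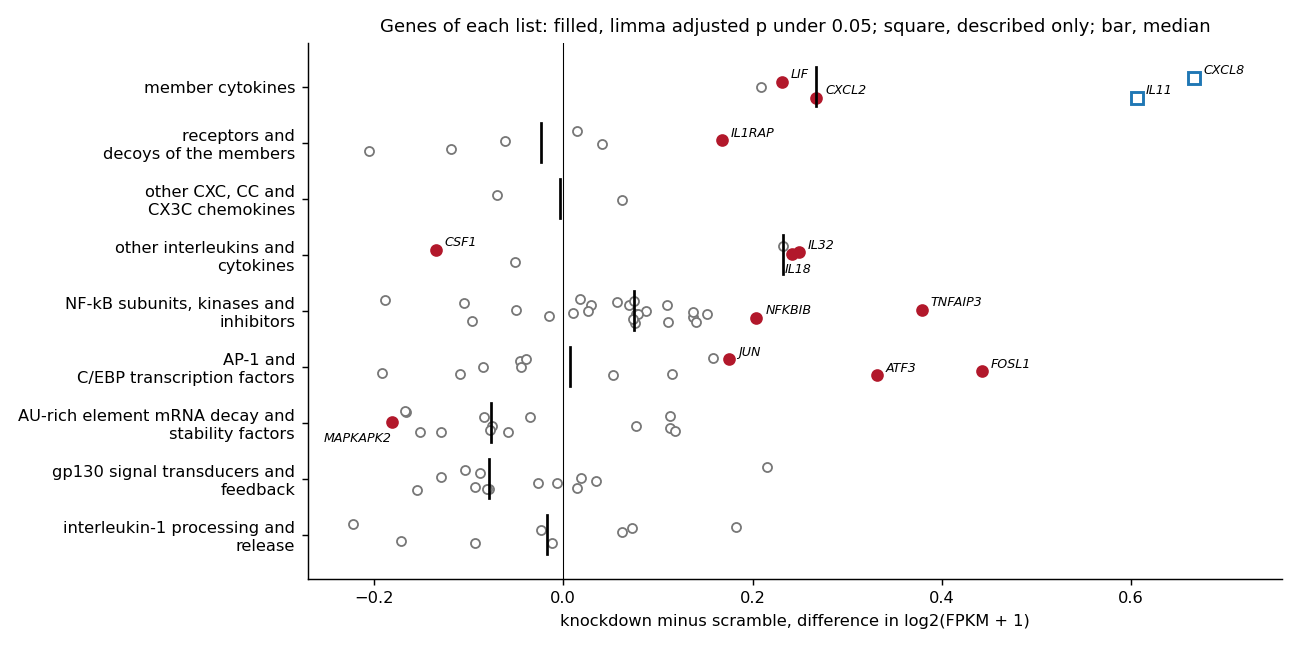
Knockdown minus scramble difference in log2(FPKM + 1) (x axis) for each tested gene of 9 lists (y axis), with genes under a limma adjusted p of 0.05 filled, the genes chosen for this difference as squares, and the median of each list as a bar. *FOSL1*, *TNFAIP3* and *ATF3* lie farthest to the right outside the member list, at 0.44, 0.38 and 0.33. The bar of the member list includes the genes chosen for this difference.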

How the data were processed

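The 9 libraries were polyadenylated, stranded RNA-seq of DU145 cells. The authors mapped the reads with STAR, calculated FPKM with Cufflinks and deposited FPKM values with lower and upper bounds for each RefSeq transcript. Versions are not given in the sources used here. The labels name hg38, and the loci are those of hg38, whereas mm10 stands in the methods. The values carry the scaling for depth and transcript length of Cufflinks, and no counts were used.

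Entries were aligned by accession and locus, since their order differs between tables, and summed per gene through RefSeq gene names of GRCh38.p14. Of 73240 accessions 595 did not match, and 42 genes with an entry not marked usable were left out. The 12509 genes that averaged 1 FPKM or more were tested as log2(FPKM + 1) by limma (version 3.58.1, R version 4.3.3), and Benjamini-Hochberg adjusted p-values under 0.05 over all of them were called. Knockdown (6 libraries) was compared with scramble (3), and each shRNA and their difference in a model of 3 groups. Members under 1 FPKM had a two-sided exact permutation test. Fragment numbers were derived from the Cufflinks bounds and cover counting error only. The number of libraries limits precision. The tables' length column is empty, so lengths came from GENCODE v29 (98.3% of tested genes), and the length trend was removed by lowess with a span of 0.3. The fits were tested on simulated data. Sums used Python 3.11.15 with numpy 2.4.6 and pandas 2.3.3, and plots matplotlib 3.10.9.

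The members and lists were chosen with earlier results of these data known. Named are all members and their receptors, of each list the called genes (at most 5, otherwise the 4 largest changes), and the 5 genes most correlated with *CXCL8* and *IL11*. The alternatives changed the pseudocount (0.1 or 0.01), dropped the filter or set it at 5 FPKM, centred or quantile-normalized the libraries, took out the length trend, or used a replicate block, a mean-variance trend, primary chromosomes only, protein-coding accessions only, and leaving out each library.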

Additional observations from a re-analysis of the deposited data

Results flagged for a closer look

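*IL11* differed between the shRNAs, 0.29 higher on the log2 scale with shRNA2 than with shRNA1 (limma adjusted p = 0.00773).

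*IL6ST* (18.7 FPKM) and *LIFR* (6.26 FPKM) were far higher in shRNA2 replicate 2 than in the other 5 knockdown libraries, which ranged from 14.8 to 15.5 FPKM and from 4.76 to 5.22 FPKM. A gap of this size was looked for in 24 genes, and chance gives about 1 in 20. In the scramble libraries *IL6ST* was 14.8 to 16.3 FPKM and *LIFR* was 5.6 to 6.03 FPKM.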

How the results depend on the processing

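Over 21 alternatives, *CXCL8* stayed 0.59 to 0.75 and *IL11* 0.56 to 0.65 above scramble on the log2 scale, and *FZD6* was called in all at −1.02 or lower. *LIF* ranged from 0.21 to 0.26, *CXCL2* from 0.17 to 0.44 and *CXCL1* from 0.11 to 0.35. With the length trend removed, genes called were 1554 in knockdown against 2578, 253 past the study's criteria (limma p under 0.01 and at least 1.2-fold) against 416, and 1515 with shRNA1 against 2357, and together with the replicate block 1142, 234 and 1357. Other listed genes called in knockdown went from 10 to 16 with quantile normalization. The share of all tested genes called then went from 20.6% to 16.8%. Between the shRNAs, other listed genes called went from 6 to 10 with the block and the length trend removed. There the share of all tested genes went from 6.71% to 8.19%. Of the called genes 65.6% were higher, against 49.7% with quantile normalization (1047 higher and 1058 lower) and 52.8% with the length trend removed (821 and 733). The cause of these shifts was not tested.

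Same-numbered libraries correlated at −0.0710 to 0.111 in their deviations from the group means, and differently numbered ones at −0.123 to 0.184. No pairing by replicate number was seen, but such correlations cannot settle whether the cultures were paired. With the replicate block alone 2377 genes were called in knockdown, and *CXCL2* was no longer called (adjusted p = 0.0553).

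Leaving out 1 library gave 926 (scramble replicate 2) to 3231 (shRNA2 replicate 2) genes in knockdown, 345 to 475 past the study's criteria, 883 (shRNA1 replicate 3) to 3525 (shRNA2 replicate 2) with shRNA1, 2053 (scramble replicate 2) to 4180 with shRNA2 and 323 (shRNA1 replicate 2) to 1160 between the shRNAs. Of *LIF*, *CXCL1* and *CXCL2*, 0 were called in knockdown by limma without scramble replicate 2 (3 at an unadjusted p under 0.05, and 7.42% of all tested genes called), 3 without shRNA2 replicate 1 (18.4%) or 3 (16.3%) and 1 without any other library (9.16% to 25.9%). With *CXCL8* and *IL11*, which were chosen for that difference and carry no test, the counts were 2 to 5. Between the shRNAs 1 to 2 of the 5 tested members were called, and 2.59% to 9.29% of all tested genes. Other listed genes called were 4 to 21 and 4 to 12. Members under 1 FPKM with an exact p under 0.05 were 0 to 1, since *CXCL3* reached 0.0714 without any 1 scramble library and 0.0536 without shRNA1 replicate 2. *IL6ST*, uncalled throughout, turned from 0.01 to −0.021 without scramble replicate 1, and with 1 library left out it ranged from −0.033 (without shRNA2 replicate 2) to 0.045. At 15 to 46 implied fragments for *IL6* and fewer than 10 for *CCL20*, small changes of these genes could not be seen.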

Other observations

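Among the listed pathway genes, 6 differed between shRNA2 and shRNA1 without being called in knockdown as a whole. They are named here after their values were seen. Among 25 tested NF-κB genes 2 were lower, and among 14 AU-rich element factors 1 was higher and 1 lower. Of 13 gp130 genes 1 was lower, as was 1 of 8 interleukin-1 processing genes, and the other lists had none. Over all 12509 tested genes 6.71% were called in this comparison, so the number does not set the listed genes apart. The calpain subunit *CAPN2*, a protease linked to interleukin-1 alpha processing, was 178.6 FPKM in scramble, 198.4 FPKM with shRNA1 and 117.9 FPKM with shRNA2 (shRNA2 minus shRNA1 −0.75, limma adjusted p = 2.7e-05). The A20-binding NF-κB inhibitor *TNIP1* was 38.8, 38.5 and 29.8 FPKM (−0.36, adjusted p = 0.000501), and the mRNA-stabilizing HuR gene *ELAVL1* was 24.2, 24.2 and 19.4 FPKM (−0.31, adjusted p = 0.00191). *SOCS2* was 24.6, 31.6 and 26.1 FPKM (−0.27, adjusted p = 0.00403), and the NF-κB-inducing kinase *MAP3K14* was 20.4, 22.2 and 19.5 FPKM (−0.17, adjusted p = 0.0190). *RC3H1*, the mRNA decay factor Roquin-1, was the only 1 of the 6 that was higher with shRNA2 (0.11, adjusted p = 0.0423). Leaving out shRNA2 replicate 2 raised the number of listed genes that differed between the shRNAs to 12, where 9.29% of all tested genes were called.

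In shRNA2 replicate 2, *TNF* was 0.451 FPKM and listed at 0 in the other 8 libraries, *CXCL10* was 0.274 FPKM against at most 0.0285, *CCL4* 0.143 FPKM against at most 0.00907 and *CSF1R* 0.134 FPKM against at most 0.0245. These genes were also picked after their values were seen, and their source was not tested.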
